A study of Mus musculus with 2 samples.

Results

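The levels of 10 genes of the liver endothelium were compared in regenerating WT and KO livers. They were chosen by name, as 8 markers of endothelial cells (Stab1, Stab2, Lyve1, Kdr, Flt1, Tek, Pecam1 and Cdh5) and 2 ligands of the Wnt pathway that these cells secrete (Wnt2 and Rspo3), out of 33224 gene symbols with a value. Each of the 10 had 1 row of its own, and none was marked as a failed estimate. The samples were liver RNA from male C57BL/6 mice collected 48 hr after partial hepatectomy (PH), 1 library from a WT liver and 1 from a PPARβ-null (KO) liver. The sample labels gave an age of 4 months, and the housing protocol a range of 3 to 5 months. The sources used here do not state whether a library came from 1 mouse or from a pool. With 1 library per genotype there was no replicate, so no difference could be set against the spread between mice and no test was run. The values are FPKM (fragment counts divided by exon length and by library size), estimated for whole loci, and coordinates are on NCBIM37 (mm9), counted from 1.

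Depth was read from the low values of single-exon genes, which piled up at the value of 1 fragment. For a transcript of 1 kb, each FPKM stood for some 53.0 WT or 54.7 KO fragments. The 95% intervals given here follow from these estimated fragments and cover counting error only. Among the 11025 gene entries with a mean of 1 FPKM or more, called expressed genes, the median log2 KO/WT was -0.24, so that most genes were lower in the KO library. Ppard, the targeted gene (chromosome 17, 28369699 to 28438414), was at 2.67 FPKM in WT against 2.42 in KO, so that KO/WT was 0.906 (0.792 to 1.04). This interval holds 1, so the level of the whole locus does not check the labels. In whole liver RNA, fewer cells of a type and less RNA per cell cannot be told apart.

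The sinusoids of the liver are lined by a specialized, fenestrated endothelium. These cells clear hyaluronan and other waste molecules from blood through scavenger receptors, and they respond to vascular endothelial growth factor (VEGF) and angiopoietins through receptor tyrosine kinases. They also release signals to hepatocytes, called angiocrine factors. Among these are Wnt ligands and R-spondins from the endothelium around the central vein, which keep nearby hepatocytes in a pericentral program and act on hepatocyte growth after PH.

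The 10 genes did not all go in the same direction. Of the 8 endothelial markers, 7 had a lower FPKM in the KO library, where 75.7% of expressed genes did, so that the direction alone was that of most genes. Together the 8 came to 42.2 FPKM in WT against 29.4 in KO. Wnt2 went the other way, at 0.885 FPKM in WT against 1.94 in KO, and Rspo3 was close to equal. By a fold of more than 1.5, 5 of the 10 genes were lower in KO, namely Lyve1, Kdr, Cdh5, Stab2 and Pecam1, against 20.2% of expressed genes. By a fold of 2 it was 1 gene, Lyve1, against 8.91%. At 1.5-fold 1 of the 10, Wnt2, was higher in KO, against 4.15% of expressed genes, and Wnt2 was also the 1 gene past 2-fold, against 1.75%. On FPKM with 0.1 added, their log2 KO/WT had a median of -0.57, beside the -0.24 of expressed genes. Once all ratios were centred on that median, the genes past 1.5-fold lower were 3, Lyve1, Kdr and Cdh5, against 12.3% of expressed genes, and Wnt2 stayed past 1.5-fold higher, against 7.3%.

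**Figure D1:**
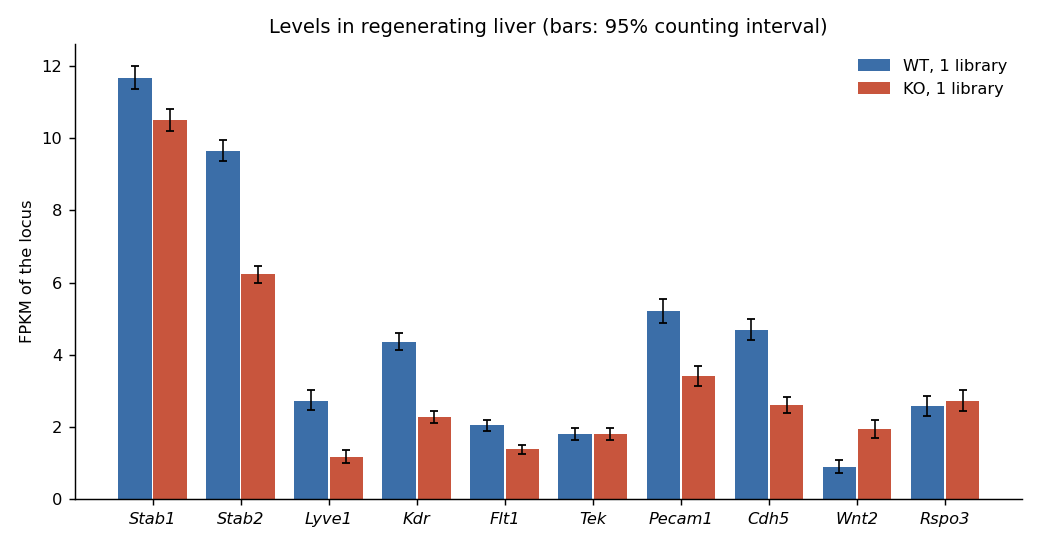
FPKM of the 10 loci (y axis) in the WT and the KO library, with 95% counting intervals as error bars and 1 library per genotype. Stab1 and Stab2 stand highest in both libraries, and Wnt2, the lowest gene in WT at 0.885, is at 1.94 in KO.

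Promoter sequences of 3 genes are shown because they belong to genes that differed in opposite directions, the VEGF receptors Kdr and Flt1 with lower and Wnt2 with higher FPKM in KO. Of the 10 genes, 6 (Stab1, Stab2, Kdr, Flt1, Tek and Wnt2) had an entry in the RefSeq promoter table (GRCm38.p6), and each of these matched NCBIM37 exactly once over the 250 bases before its start site. The bases shown are the part of this window outside the gene annotated in GENCODE vM1, written 5′ to 3′. Capitals mark the GC box letters GGGCGG and the ETS core letters CGGAAG or AGGAAG on either strand. The 3 genes shown are a choice, since Stab2, also lower in KO and with an entry, is left out. They are also the 3 of the 6 whose windows held GC box letters.
Kdr promoter, chr5:76374484-76374730, minus strand: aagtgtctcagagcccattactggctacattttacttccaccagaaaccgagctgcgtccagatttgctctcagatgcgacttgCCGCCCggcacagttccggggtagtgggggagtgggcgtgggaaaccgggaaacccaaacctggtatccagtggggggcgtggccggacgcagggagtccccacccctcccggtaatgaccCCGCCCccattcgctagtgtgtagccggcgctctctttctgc
Flt1 promoter, chr5:148537588-148537837, minus strand: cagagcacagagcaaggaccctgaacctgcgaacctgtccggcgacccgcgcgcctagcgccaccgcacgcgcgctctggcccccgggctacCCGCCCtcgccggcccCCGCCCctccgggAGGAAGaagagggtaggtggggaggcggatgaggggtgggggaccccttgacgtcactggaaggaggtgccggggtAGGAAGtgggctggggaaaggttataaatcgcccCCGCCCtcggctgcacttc
Wnt2 promoter, chr6:17980586-17980695, minus strand: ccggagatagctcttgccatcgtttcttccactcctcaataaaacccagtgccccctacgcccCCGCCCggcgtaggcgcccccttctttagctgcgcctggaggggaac

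GC box letters occurred 2 times in the Kdr window, 3 times in that of Flt1 and 1 time in that of Wnt2, and were not in those of Tek, Stab1 and Stab2, so that 3 of 6 held them where 32.7% of 32851 promoter windows of the same length did. The ETS core, bound by a factor family with many endothelial targets, was found as AGGAAG in the windows of Flt1, Stab1 and Stab2, against 29.5% of all windows. As CGGAAG it was found in that of Stab1, against 13.6%. Neither form was in the windows of Kdr, Tek or Wnt2. The half-site AGGTCA, a building block of nuclear receptor sites, was in 1 of the 6 windows, that of Stab2, and in 14% of all windows. AGATAA, the letters that GATA factors bind, was in 0 of the 6 and in 9.99% of all windows. The matches did not overlap each other. They describe letters in a window and do not show binding.

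Among the scavenger receptors, Lyve1 had the largest fold and Stab1 the smallest. Lyve1 (chromosome 7, 117994121 to 118006467), a hyaluronan receptor of sinusoidal and lymphatic endothelium, was at 2.72 FPKM in WT against 1.17 in KO, about 376 and 167 fragments. Its WT/KO ratio was 2.33 (1.93 to 2.81), and 6.67% of expressed genes had a lower KO/WT. Stab2 (chromosome 10, 86301839 to 86490760), which takes up hyaluronan and other circulating ligands, was at 9.66 FPKM in WT against 6.23 in KO, so that WT/KO was 1.55 (1.48 to 1.63). Its close relative Stab1 (chromosome 14, 31944293 to 31981827), which is also made by macrophages, was at 11.7 FPKM in WT against 10.5 in KO, so that WT/KO was 1.11 (1.07 to 1.16). Relative to expressed genes Stab1 was not lower, since centring turned its log2 KO/WT from -0.15 to 0.08, and equal upper quartiles turned it to 0.13. The quotient of Stab2 to Stab1 FPKM was 0.827 in WT against 0.593 in KO. The loci given for Stab1 and Stab2 are both wider than the annotated genes. That of Stab1 also holds Nt5dc2 on the other strand, which has a row of its own. That of Stab2 holds noncoding genes and pseudogenes on the other strand.

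The growth factor receptors did not move as one. Kdr (chromosome 5, 76328852 to 76374483) encodes VEGF receptor 2, the main signalling receptor for VEGF in endothelium. It stood at 4.36 FPKM in WT against 2.27 in KO, about 1370 and 736 fragments, so that WT/KO was 1.92 (1.75 to 2.10). Flt1 (chromosome 5, 148373180 to 148537587) encodes VEGF receptor 1, of which a soluble form binds VEGF as a decoy. It stood at 2.04 FPKM in WT against 1.37 in KO, a ratio of 1.49 (1.33 to 1.67), just short of 1.5-fold. Tek (chromosome 4, 94405980 to 94541667), the angiopoietin receptor Tie2, was at 1.80 FPKM in WT against 1.81 in KO. The interval of its KO/WT ratio was 0.878 to 1.14, so a difference was not detectable at this depth, and 75.9% of expressed genes had a lower KO/WT. The quotient of Kdr to Tek was 2.42 in WT and 1.26 in KO, and that of Kdr to Flt1 was 2.14 and 1.66.

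Both junction proteins were lower in the KO library. Cdh5 (chromosome 8, 106625525 to 106668454) encodes VE-cadherin, which holds endothelial cells together. It stood at 4.69 FPKM in WT against 2.60 in KO, about 992 and 568 fragments, so that WT/KO was 1.80 (1.62 to 2.00). Pecam1 (chromosome 11, 106515531 to 106611942) encodes CD31, which is found on endothelial cells and also on platelets and leukocytes. It stood at 5.21 FPKM in WT against 3.40 in KO, a ratio of 1.53 (1.38 to 1.69).

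**Figure D2:**
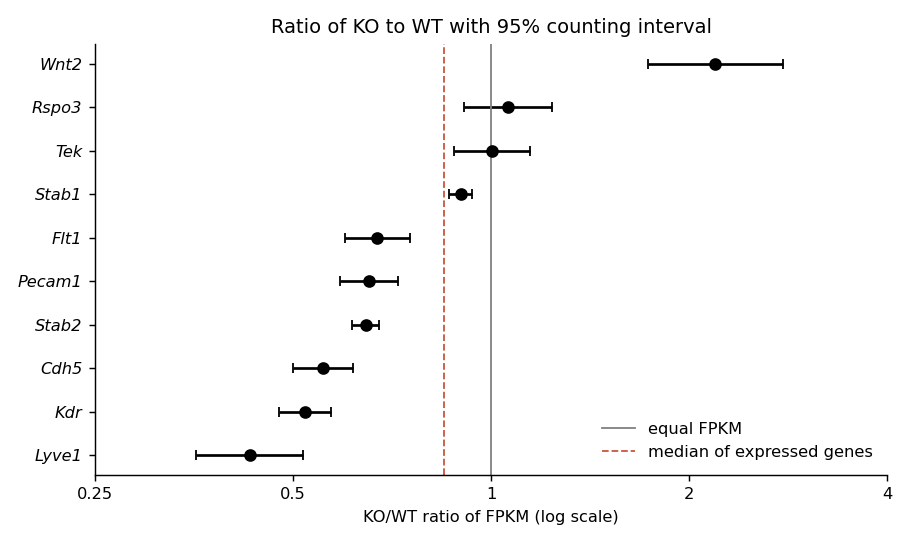
KO/WT ratio of FPKM (x axis, log scale) of the 10 genes, ordered by ratio, with 95% counting intervals from 1 library per genotype; the grey line is equal FPKM and the dashed line the median of expressed genes, at a ratio of 0.848. Lyve1, Kdr and Cdh5 lie farthest to the left, and Wnt2, at 2.19, lies alone on the right.

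Neither angiocrine ligand was lower in the KO library, as was also so of Tek among the markers. Wnt2 (chromosome 6, 17938940 to 17980585), whose product activates β-catenin signalling in hepatocytes, was at 0.885 FPKM in WT against 1.94 in KO, about 106 and 239 fragments. Its KO/WT ratio was 2.19 (1.73 to 2.78), and 98.4% of expressed genes had a lower one. The quotient of Wnt2 to Cdh5 was 0.189 in WT against 0.744 in KO. That of Wnt2 to the sum of the 8 markers was 0.0210 and 0.0660. Both quotients combine the higher Wnt2 with the lower markers, so they are not a result apart from those values. Against Tek, which was close to equal, the fold would be about that of Wnt2 alone. Rspo3 (chromosome 10, 29172915 to 29255673) encodes a ligand that amplifies Wnt signals by way of Lgr receptors. It stood at 2.57 FPKM in WT against 2.72 in KO, so that KO/WT was 1.06 (0.910 to 1.24), and a difference was not detectable at this depth. Per unit of Cdh5, Rspo3 stood at 0.547 in WT against 1.04 in KO. As Rspo3 itself was close to equal, this quotient mainly followed the lower Cdh5.

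The counting interval of the ratio left out 1 for 8 of the 10 genes, the exceptions being Tek and Rspo3, and for 10 of 10 once the ratios were centred. After centring the intervals of Tek and Rspo3 lay above 1, and that of Stab1 went from below 1 to above 1. Before centring, such intervals were narrow for most genes. They lay below 1 for 62.5% and above 1 for 15% of 10389 expressed genes with an annotated transcript, so that leaving out 1 does not set a gene apart. The shares after centring were not counted.

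The order of levels, which FPKM allows between genes since it is per length, differed between the libraries in the middle and at the low end. In WT the levels ran from Stab1 and Stab2 through Pecam1, Cdh5, Kdr, Lyve1, Rspo3, Flt1 and Tek to Wnt2. The counting intervals of these neighbours overlapped for Pecam1 with Cdh5, Cdh5 with Kdr, Lyve1 with Rspo3, and Flt1 with Tek. In KO the order after Stab1, Stab2 and Pecam1 was Rspo3, Cdh5, Kdr, Wnt2, Tek, Flt1 and Lyve1. There the intervals overlapped between each pair of neighbours from Rspo3 to Tek and for Flt1 with Lyve1. Wnt2 stood at rank 10 in WT and at rank 7 in KO, and Lyve1 at rank 6 and 10.

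Other genes of endothelial cells were compared with genes at a mean of 0.1 FPKM or more, of which 74.8% were lower and 25.2% higher in KO (median -0.25 on the log2 scale). Of 14 further markers of sinusoidal endothelium, 12 were lower in KO, against 74.8% of those genes, and 5 by more than 1.5-fold, against 26.5%. Their median log2 KO/WT was -0.47. Dnase1l3, a secreted DNase, was at 8.03 FPKM in WT against 3.79 in KO, the lowest KO/WT of this list. The Fc receptor gene Fcgr2b had 12.2 and 8.47, Ehd3 13.0 and 10.5, and the lectin gene Clec4g, whose row also names Gm9814, 21.8 and 18.9. Plxnc1, at 5.61 and 6.27, was the highest by ratio. Of 26 general endothelial markers 23 were lower in KO, against 74.8% of all such genes, 11 of them past 1.5-fold, against 26.5%, with a median of -0.43. The tight junction gene Cldn5 was at 3.49 FPKM in WT against 0.985 in KO, so that WT/KO was 3.54 (2.74 to 4.64). The sphingosine 1-phosphate receptor gene S1pr1 had 18.4 and 19.9. Ramp2 (55.9 and 48.5) and Eng (15.7 and 14.5) share their rows with Vps25 and Ak1, so these values belong to joint loci, and 4 genes of this list in all have such a row.

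The list of ligands and partners of the VEGF and angiopoietin receptors had 10 genes at a mean of 0.1 FPKM or more, and 9 were lower in KO, against 74.8% of all such genes, and 3 past 1.5-fold, against 26.5%. The list's median was -0.46. Vegfa, the main ligand of Kdr and Flt1, was at 42.8 FPKM in WT against 38.5 in KO. Vegfb, a ligand of Flt1, had 6.88 and 3.33, so that WT/KO was 2.07 (1.76 to 2.43). Of the co-receptors, Nrp1, which has 2 rows, 1 of them shared with Mir1903, had 30.3 and 38.5, the single gene of this list with a higher value in KO, and for Nrp2 KO/WT was 0.685 (0.613 to 0.764). For the angiopoietin pathway, Tie1, the partner of Tek, had 3.31 and 2.33 at a row shared with Gm12859. Angpt2 was low, with 0.182 and 0.0404, about 34.5 and 7.86 fragments.

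Among other angiocrine and flow-response genes, 17 of 21 were lower in KO, close to the 74.8% of all such genes, and 9 were past 1.5-fold, against 26.5%, with a median log2 KO/WT of -0.47. Hgf, which encodes the hepatocyte growth factor, was at 4.15 FPKM in WT against 4.22 in KO, and the interval of its KO/WT ratio was 0.908 to 1.14. Id1, an inhibitor of helix-loop-helix factors that is induced by BMP signals, had 20.0 and 7.40, so that WT/KO was 2.70 (2.42 to 3.01). The BMP ligands Bmp2 (3.03 and 1.86) and Bmp6 (0.812 and 0.369) were lower in KO. So were the Notch ligand gene Dll4 (0.767 and 0.215) and the receptor gene Notch1 (2.77 and 1.39). The Notch target gene Hes1 was higher, with 7.02 and 11.9, but another target gene, Hey1, had 0.175 and 0.0825. The ligand gene Jag1 had 1.32 and 1.21, and the receptor gene Notch4, on a row shared with Gpsm3, 1.46 and 1.28. For Hey1, Jag1 and Notch4 the interval of the ratio held 1. The flow-responsive genes Klf2 (3.15 and 2.72) and Nos3 (1.13 and 1.09) had intervals of the ratio that held 1.

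The other Wnt genes differed in both directions. Of 21 other genes for Wnt ligands and R-spondins, 6 had a mean of 0.1 FPKM or more and 10 were listed at 0 in both libraries. Wnt9b, which central vein endothelium also makes, was at 0.521 FPKM in WT against 1.06 in KO, about 125 and 261 fragments, so that KO/WT was 2.03 (1.63 to 2.53). Wnt5b had 2.99 and 5.67, a ratio of 1.89 (1.67 to 2.15). These were 2 genes past 1.5-fold higher among the 6, where 6.09% of genes with a mean of 0.1 FPKM or more passed. The other 4 were lower in KO, against 74.8% of all such genes. Of these, 3 (Wnt5a, Wnt4 and Rspo1) were past 1.5-fold lower, against 26.5%. Wnt5a had 0.638 and 0.411, Wnt4 0.360 and 0.193, Rspo1 0.260 and 0.155, and Wnt2b 0.288 and 0.223, but the intervals of Rspo1 and Wnt2b held 1. Wnt11, below this level on average and named after its values were seen, was at 0.184 FPKM in WT against 0.0046 in KO, about 33.6 and 0.873 fragments, and its WT/KO ratio of 39.7 had an interval of 6.06 to 2552. Over these 6, log2 KO/WT had a median of -0.38. Which cells made these transcripts cannot be read from whole liver RNA.

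**Figure D3:**
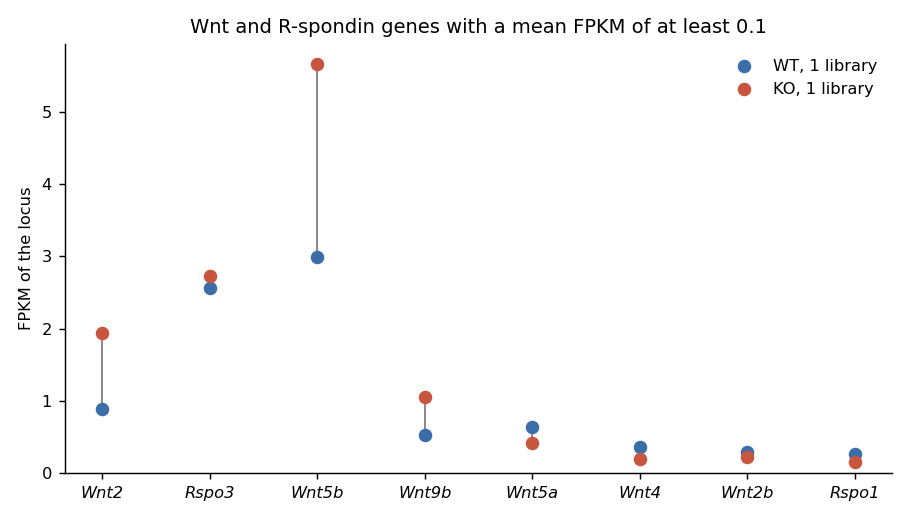
FPKM (y axis) of the Wnt and R-spondin genes with a mean of 0.1 FPKM or more in the WT and the KO library, with a line joining the values of each gene. Wnt2, Wnt5b and Wnt9b are higher in KO, Rspo3 is nearly equal (2.57 and 2.72), and the other 4 are lower.

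On the receiving side, 15 of 20 genes for Wnt and R-spondin receptors and Wnt secretion had a mean of 0.1 FPKM or more, of which 11 were lower and 4 higher in KO, about the 74.8% and 25.2% of all such genes (median -0.20 on the log2 scale, which centring on expressed genes turned to 0.04). Past 1.5-fold, 4 were lower, against 26.5% of all such genes, and 3 were higher, against 6.09%. The co-receptor gene Lrp5 was at 16.7 FPKM in WT against 28.1 in KO, and its relative Lrp6 had 12.6 and 9.67. Of the receptors for R-spondins, Lgr4 had 14.8 and 7.75, the lowest KO/WT of this list. Lgr5, named after its values were seen, had 1.72 and 2.65. Among 12 secreted inhibitors of Wnt signals, 3 were at a mean of 0.1 FPKM or more, namely Notum (13.7 and 27.8), Frzb (1.51 and 0.876) and Dkk3 (0.387 and 0.461), with a median of 0.21. This median is the value of Dkk3, for which the interval of the KO/WT ratio was 0.857 to 1.66 and held 1. Notum, which is itself induced by β-catenin, had a KO/WT ratio of 2.02 (1.91 to 2.15).

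Pericentral targets of Wnt signalling were mostly higher in the KO library. Of 12 such genes 8 were higher in KO, against 25.2% of genes with a mean of 0.1 FPKM or more, and 7 past 1.5-fold, against 6.09%, and the median log2 KO/WT was 0.65. Axin2, a feedback inhibitor of the pathway, was at 2.42 FPKM in WT against 5.70 in KO, so that KO/WT was 2.35 (2.13 to 2.61). The glutamine synthetase gene Glul had 265 and 400 (ratio 1.51), Cyp2e1 had 1039 and 2319 (ratio 2.23), and Oat had 1179 and 1418 (ratio 1.20). The other 4 genes were lower in KO, and Cyp1a2 was the lowest of them by ratio, with 488 and 142, so that WT/KO was 3.44. The part of Wnt2 or Wnt9b in these values was not tested.

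Markers of other non-parenchymal cells moved with the endothelial markers. Of 12 Kupffer cell markers 11 were lower in KO, against 74.8% of genes with a mean of 0.1 FPKM or more, and 8 past 1.5-fold, against 26.5%. Their median was -0.73, and the list summed to 104 FPKM in WT against 67.9 in KO. Clec4f had 17.3 and 10.6, Cd5l 18.4 and 10.8, C1qb 14.8 and 10.0, Csf1r 3.98 and 1.64, and Marco, the exception, 6.58 and 7.37. The stellate cell list had 13 markers at a mean of 0.1 FPKM or more, and 13 were lower in KO and 5 past 1.5-fold, against the same shares, with a median of -0.56 and a summed FPKM of 177 and 120 over all 14. Col1a1 (8.56 and 1.75) and Col3a1 (14.5 and 3.18) had the largest folds, Dcn had 62.6 and 46.9, Ecm1, on a row shared with Tars2, had 51.9 and 40.1, and Pdgfra had 1.15 and 1.12. Hepatocyte markers did not share this direction, since 8 of 10 were higher in KO, against 25.2% of all such genes, and their median was 0.16. Ahsg had 5309 and 5991, Apoa1 3061 and 3503, Fgb 2698 and 4534, and Cps1, the lowest by ratio, 1597 and 743. The part of cell composition in the values of the 10 genes was not tested.

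**Figure D4:**
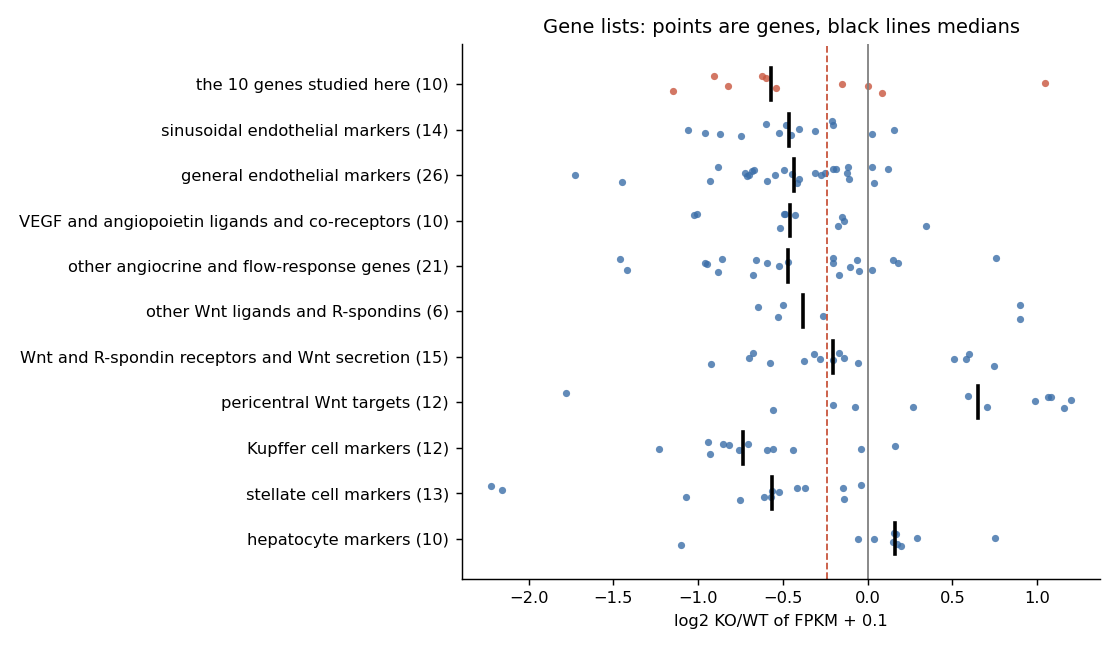
Log2 KO/WT of FPKM with 0.1 added (x axis) for the 10 genes and for the genes of 10 lists with a mean of 0.1 FPKM or more (number of genes in parentheses), from 1 library per genotype; points are genes, black lines medians, the grey line equal values and the dashed line the median of expressed genes at -0.24. The endothelial, Kupffer cell and stellate cell lists have medians between -0.73 and -0.43, and the pericentral Wnt targets one of 0.65.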

How the data were processed

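RNA-sequencing of regenerating liver gave 1 WT and 1 KO library. Per the paper's methods and the submitters' processing notes, the authors aligned reads with TopHat (2.0.0) to mm9, assembled transcripts with Cufflinks (1.3.0) and estimated 1 FPKM per locus and library with Cuffdiff. The deposited columns of fold change, statistic, p-value, q-value and significance hold the authors' own comparison and were not used. The 10 genes and the 17 gene lists were chosen with earlier results of these data known. Rows of a symbol were summed, and the 21 loci marked HIDATA were left out. Before log2 ratios were taken, 0.1 FPKM was added to each value, so changes of low genes are understated, and lists were limited to genes with a mean of 0.1 FPKM or more. Over all genes, a row that names several symbols was counted once. Fragments were estimated from FPKM, the longest transcript in GENCODE vM1 and the FPKM of 1 fragment on 1 kb (0.0189 in WT, 0.0183 in KO). Intervals are exact, Clopper-Pearson for ratios and Poisson for levels, at 95%. The RNA kit named in the labels does not mark strand, so that reads of overlapping genes cannot be told apart.

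All 10 genes were named. Any gene of the VEGF and angiopoietin, Wnt ligand and angiocrine lists with a mean of 0.1 FPKM or more could be named, and those given were picked from them, for the VEGF and angiocrine lists, with their values seen. Of each other list, the genes named came from the 3 with the highest mean FPKM and those with the lowest and highest ratio. No genes with a like pattern were sought, since over 2 libraries a pattern is a single ratio. The log2 ratio, the fold call and the interval of the ratio were tested on simulated counts. The depth estimate, the gene lists and the promoter search were not tested in this way. Alternatives changed the pseudocount, the filter, the fold, the scaling, the handling of rows and the transcript length. Scripts ran under Python 3.11.15 with scipy 1.17.1 for intervals, pandas 2.3.3 and numpy 2.4.6 for tables, and matplotlib 3.10.9 for plots.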

Additional observations from a re-analysis of the deposited data

How the results depend on the processing

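No library could be left out in turn. No paired analysis was possible because each genotype has a single library. The number of the 10 genes past 1.5-fold lower in KO was 5 as deposited, 3 when ratios were centred on the expressed genes' median, and 2 with equal upper quartiles, and it was 1 with a fold of 2. The median log2 KO/WT of the sinusoidal markers was -0.20 with equal upper quartiles, and that of the general endothelial markers was -0.20 after centring and -0.16 with equal upper quartiles. These shifts follow from the scaling, which adds nearly the same amount to each log2 ratio. Stab1 changed sign, to 0.083 after centring and 0.13 with equal upper quartiles. Values of the other single genes kept their direction but moved past their counting interval in 8 cases with equal upper quartiles, 7 after centring and 5 with a pseudocount of 1 FPKM, which took the log2 KO/WT of Wnt2 from 1.05 to 0.64 and that of Lyve1 from -1.15 to -0.78. The other 38 alternatives of the main results stayed within the 95% order-statistic interval of the median over its genes or within 1.5 times the count. For the 10 genes that interval was wide, -0.91 to 0.08, and holds 0. Their median was -0.34 after centring and -0.30 with equal upper quartiles, so staying within the interval says little there. The medians of the Kupffer cell, stellate cell, Wnt ligand and pericentral target lists, tried under 3 scalings chosen after seeing the data, kept their sign. Depth limits mainly the genes with few fragments, such as Angpt2, and the spread between mice was not measured for any gene.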

Other observations

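Lists for other cells that a piece of liver can hold were also compared. Of 4 lymphatic endothelial markers, 3 had a mean of 0.1 FPKM or more, with a median log2 KO/WT of -0.50. Pdpn was at 1.08 FPKM in WT against 0.235 in KO, and Prox1, which hepatocytes also make, had 15.2 and 20.4. Ccl21a, whose ratio is the list's median, had 0.142 and 0.0713, about 6.57 and 3.39 fragments. The interval of its KO/WT ratio was 0.0926 to 2.15, so a difference was not detectable. Of 6 platelet and megakaryocyte markers, cells that share Pecam1 with endothelium, 4 were at a mean of 0.1 FPKM or more, with a median of -0.85, and Itga2b had 1.37 and 0.844. The lymphocyte list summed to 1.95 FPKM in WT against 1.11 in KO, with a median of -0.52 over 5 of 11 genes, and Ptprc, found on leukocytes in general, had 0.770 and 0.506. Several of these 5 genes rest on few fragments and have intervals of the ratio that held 1. Cd79b, for example, had about 11.7 and 6.23 fragments, with an interval of 0.161 to 1.47 for KO/WT. The neutrophil list had a median of -0.79 over 3 of 8 genes, with 6.68 and 3.33 for S100a8, and 3 of its genes were listed at 0 in both libraries. The erythroid list had a median of -0.30 over 5 genes, with 139 and 113 for Hba-a1, but Alas2 was higher in KO, with 20.6 and 37.5. The cholangiocyte list had a median of -0.13 over 7 genes, which centring on expressed genes turned to 0.11, with 24.5 and 22.7 for Spp1 and 1.72 and 0.559 for Krt19.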
